A study of Mus musculus with 7 samples.

Results

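The genes described here are 10 genes of the mouse olfactory signal cascade, namely *Omp*, *Stoml3*, *Gnal*, *Gng13*, *Adcy3*, *Cnga2*, *Cnga4*, *Cngb1*, *Ano2* and *Slc24a4*. They were chosen by name for their place in odour detection, and stand for 10 of the 20723 genes or transcripts tested and for 13 of the 39429 probes on the array. RNA from the nasal cavity (septum and turbinate) of female BALB/c mice, labelled as 6 weeks of age, was compared between mice that inhaled diesel exhaust particles (DEPs) and control mice. Tissue was collected after the exposure, and the age at collection is not given in the sources used here. The DEP group breathed 100 µg DEP per m3 of air, suspended in saline and delivered by an ultrasonic nebulizer for 1 h on each of 5 days a week, over 4 or 8 weeks. Per the methods, which describe the 4-week exposure, control mice were given saline in the same way, and how long the control mice of the 8-week arrays were kept is not given in the sources used here. Each array carried DEP RNA in Cy5 and control RNA in Cy3, with 4 arrays after 4 weeks and 3 after 8 weeks. The study used 32 mice, and how many of them stand behind an array, or whether RNA was pooled, is not given in the sources used here. The p-values therefore measure only the spread between arrays, which may be partly technical.

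Values are log2 ratios of DEP over control within an array, so a value above 0 means a higher level in DEP-exposed tissue. The dyes were never swapped, so a dye bias that loess leaves in a probe stays in its ratio. Each exposure time had a slide of its own, so the effects of time and slide cannot be told apart. Per array, 18661 to 25098 probes exceeded background well in Cy5 (DEP) and 17105 to 26964 in Cy3 (control), with 0 saturated spots. Log2 ratios of the tested probes correlated at 0.44 to 0.49 between the 4-week arrays, at 0.71 to 0.88 between the 8-week arrays, and at 0.09 to 0.29 across exposure times. All 7 arrays detected *Omp*, the sustentacular enzyme gene *Cyp2g1* and the respiratory secretory gene *Bpifa1* in both channels, which are markers of the olfactory and of the respiratory lining of the nose.

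In olfactory sensory neurons an odorant binds a receptor on the cilia, and the receptor activates the G protein Golf, made of the alpha subunit encoded by *Gnal* and beta and gamma subunits, the latter encoded by *Gng13*. Golf turns on adenylyl cyclase 3 (*Adcy3*), which makes cyclic AMP, and cyclic AMP opens a cation channel built from *Cnga2*, *Cnga4* and *Cngb1* products. Calcium that enters opens the chloride channel anoctamin 2 (*Ano2*), which amplifies the current, and the exchanger NCKX4 (*Slc24a4*) helps to remove the calcium afterwards. *Omp* encodes olfactory marker protein, the textbook marker of mature olfactory neurons, and *Stoml3* encodes a stomatin-like membrane protein of their cilia. *Slc24a4* is also known from enamel-forming cells of the teeth.

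Most of the cascade stood higher in DEP than in control tissue after 4 weeks and lower after 8 weeks. At 4 weeks, 7 of the 10 genes rose in limma's moderated test (p adjusted by Benjamini-Hochberg over all probes, threshold 0.05) and 0 fell, where 21.6% of all genes rose and 16.6% fell (38.1% in all). At 8 weeks, 8 of 10 fell and 0 rose, where 16.9% of all genes fell and 20.3% rose (37.2% in all). The same 7 genes (*Omp*, *Stoml3*, *Gnal*, *Gng13*, *Cnga2*, *Cnga4* and *Cngb1*) were called in opposite directions at the 2 times, which held for 3.47% of all genes. The median log2 ratio of the 10 genes was 0.43 at 4 weeks and -0.54 at 8 weeks, against 0.00036 and 0.01 over all genes. The changes were small in size. At the study's thresholds (unadjusted p up to 0.01 with a change of 2-fold or more), 0 of 10 passed at 4 weeks (1.3% of all genes) and 0 of 10 at 8 weeks (2.93%). These counts read each gene from its brightest probe, with the processing used here. With median centring in place of loess, *Cnga2* (0.33, adjusted p = 0.0612) and *Cnga4* (0.12, adjusted p = 0.135) missed the threshold at 4 weeks, and in the methods' t-test paired within arrays only *Cngb1* of the 10 genes passed at 8 weeks after adjustment (adjusted p = 0.0468). In bulk tissue, fewer cells of a type and less RNA per cell cannot be told apart.

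**Figure D1:**
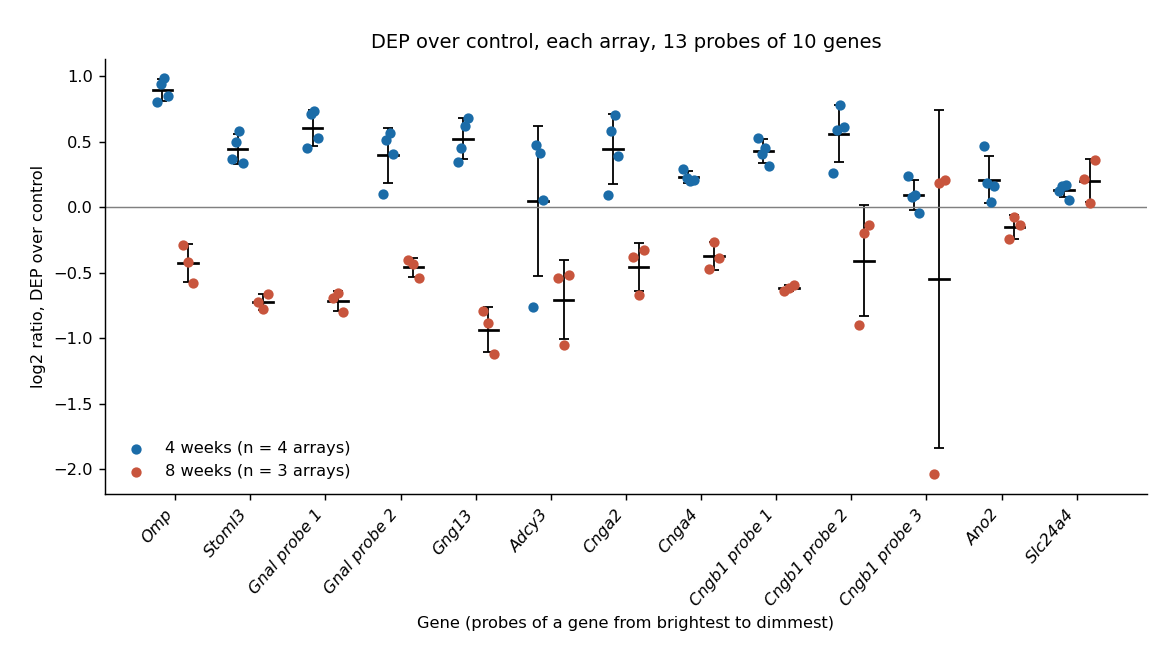
Log2 ratio of DEP over control (vertical axis) on each array for the 13 probes of the 10 genes (horizontal axis), with 4-week arrays in blue (n = 4) and 8-week arrays in red (n = 3), black bars for means and whiskers for 1 SD. For 8 genes every 4-week point of the brightest probe lies above 0 and every 8-week point below it, *Adcy3* has a single 4-week array at -0.76, and all *Slc24a4* points lie above 0.

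Sequence upstream of the start sites is shown for 4 of the genes because it holds a motif of factors known from this cell type. The EBF (Olf-1) family of transcription factors, known regulators of olfactory neuron genes, binds a palindrome with the core CCCNNGGG. RefSeq promoter windows of GRCm38.p6 were matched by symbol for 8 of the 10 genes, with 12 windows in all. The 250 bases before each start were searched (the palindrome reads alike on both strands). *Omp* had no window, and *Gnal* was not searched because windows on its chromosome were left out for the 10 genes. The shares over all windows and genes given below leave out no chromosome. The core was found in windows of 5 genes, *Gng13*, *Cnga2*, *Cngb1*, *Ano2* and *Slc24a4*, where 11.8% of all 32851 windows and 13.4% of the genes with a window hold it. The homeodomain core TAATTA, which overlaps none of these matches and is also its own reverse complement, was in 0 of the 12 windows and in 4.84% of all windows. Below are the windows of *Cnga2* (chrX:71991599-71991848, plus strand), *Cngb1* (chr8:95306586-95306835, minus strand), *Gng13* (chr17:25716922-25717171, plus strand) and *Slc24a4* (chr12:102128477-102128726, plus strand), 5′ to 3′ along the gene, with the core in capitals. In *Gng13* a pair of matches overlap within the capitals.
Cnga2: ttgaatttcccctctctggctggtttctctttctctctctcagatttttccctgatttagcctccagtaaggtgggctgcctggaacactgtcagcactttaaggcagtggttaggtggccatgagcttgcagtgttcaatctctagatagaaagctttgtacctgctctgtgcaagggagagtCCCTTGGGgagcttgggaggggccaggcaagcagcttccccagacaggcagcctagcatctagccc
Cngb1: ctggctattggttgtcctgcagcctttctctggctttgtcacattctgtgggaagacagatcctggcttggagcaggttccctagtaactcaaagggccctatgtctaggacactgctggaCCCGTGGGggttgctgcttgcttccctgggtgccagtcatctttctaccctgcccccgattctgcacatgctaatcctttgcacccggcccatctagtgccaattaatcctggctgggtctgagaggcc
Gng13: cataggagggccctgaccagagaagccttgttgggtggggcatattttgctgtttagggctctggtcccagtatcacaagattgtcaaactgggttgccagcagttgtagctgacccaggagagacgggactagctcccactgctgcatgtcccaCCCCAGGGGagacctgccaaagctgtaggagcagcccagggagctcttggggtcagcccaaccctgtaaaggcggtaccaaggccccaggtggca
Slc24a4: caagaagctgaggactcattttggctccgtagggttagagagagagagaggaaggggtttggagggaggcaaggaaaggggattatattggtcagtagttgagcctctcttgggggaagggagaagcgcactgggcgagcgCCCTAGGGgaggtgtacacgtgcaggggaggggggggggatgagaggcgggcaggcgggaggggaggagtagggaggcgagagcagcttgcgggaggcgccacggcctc
The capitals begin 66 bases before the start in *Cnga2*, 129 in *Cngb1*, 95 in *Gng13* and 109 in *Slc24a4*. *Cnga2*, *Cngb1* and *Gng13* changed in opposite directions at the 2 exposure times, and *Slc24a4* and *Ano2*, with the same core, passed the test at neither. *Cnga4* and *Stoml3*, which also rose at 4 weeks and fell at 8 weeks, and *Adcy3*, which fell at 8 weeks, had no match in these windows. A match of letters is no site of binding, and no binding was measured.

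*Omp* had log2 ratios of 0.80, 0.94, 0.98 and 0.85 on the 4-week arrays (replicates 1 to 4) and of -0.29, -0.42 and -0.58 on the 8-week arrays (replicates 1 to 3). All 4-week ratios were above 0, all 8-week ratios were below 0, and the groups were far apart. The mean was 0.89 ± 0.08 (SD, n = 4) at 4 weeks, a 1.86-fold higher level in DEP tissue (adjusted p = 3.91e-05, limma), which was the largest 4-week change among the 10 genes. At 8 weeks the mean was -0.43 ± 0.14 (SD, n = 3), a 1.35-fold lower level (adjusted p = 0.00239, limma). The cilia gene *Stoml3* had ratios of 0.37, 0.50, 0.58 and 0.33 at 4 weeks and -0.73, -0.78 and -0.66 at 8 weeks. Its arrays were likewise split cleanly by exposure time, with means of 0.44 ± 0.11 (adjusted p = 0.000794) and -0.72 ± 0.06 (adjusted p = 0.000121).

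Both Golf subunit genes changed in the same way. The ratios of *Gnal*, read from its brighter probe, were 0.45, 0.71, 0.73 and 0.53 at 4 weeks and -0.69, -0.65 and -0.80 at 8 weeks. No array of either time crossed 0, with means of 0.61 ± 0.14 (SD, n = 4, 1.52-fold higher, adjusted p = 0.000289 in limma) and -0.72 ± 0.07 (SD, n = 3, 1.64-fold lower, adjusted p = 0.000212). The dimmer *Gnal* probe ran from 0.10 to 0.56 at 4 weeks and from -0.54 to -0.41 at 8 weeks, with adjusted p of 0.00651 and 0.00618, so both probes gave the same calls. *Gng13*, the gamma subunit, had ratios of 0.34, 0.45, 0.62 and 0.68 at 4 weeks and -0.80, -0.89 and -1.12 at 8 weeks. Its mean of 0.52 ± 0.16 at 4 weeks (adjusted p = 0.00163) turned to -0.94 ± 0.17 at 8 weeks, a 1.91-fold lower level (adjusted p = 0.000166) and the largest 8-week change among the 10 genes.

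*Adcy3*, the cyclase that Golf activates, was the least even of the genes between arrays. Its ratios were -0.76, 0.48, 0.42 and 0.06 at 4 weeks and -0.54, -1.06 and -0.52 at 8 weeks. Replicate 1 of 4 weeks lay below 0 and within the range of the 8-week arrays, so the groups overlapped. On that array the control level of the probe was 9.10 (log2), against 8.47 to 8.59 on the other 4-week arrays, and its DEP level of 8.34 was the lowest of the group. The 4-week mean was 0.05 ± 0.57 (95% interval -0.41 to 0.50, adjusted p = 0.869 in limma), and without replicate 1 of 4 weeks it was 0.32 (adjusted p = 0.101), while without replicate 2 or 3 it was -0.10 or -0.08. The 8-week mean was -0.71 ± 0.30 (1.63-fold lower, adjusted p = 0.0442). This call was lost without any single 8-week array, with adjusted p of 0.095 without replicate 1, 0.227 without replicate 2 and 0.0968 without replicate 3, and without replicate 4 of 4 weeks (0.0616). It was also lost without the filter (adjusted p = 0.075) and with the replicate block (0.132). In the methods' t-test the adjusted p was 0.061 unpaired and 0.159 paired within arrays. The *Adcy3* probe was well above background on all arrays.

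The 3 genes of the cyclic nucleotide-gated channel changed together at both times. *Cnga2*, a subunit that binds cyclic AMP and forms the pore with the others, had ratios of 0.09, 0.58, 0.70 and 0.39 at 4 weeks and -0.38, -0.67 and -0.33 at 8 weeks. The exposure times did not overlap, with means of 0.44 ± 0.27 (adjusted p = 0.0127) and -0.46 ± 0.18 (adjusted p = 0.0195). The 8-week call of *Cnga2* was lost without replicate 1 of 8 weeks (adjusted p = 0.0543) or replicate 2 of 8 weeks (0.127). *Cnga4*, a modulatory subunit, had ratios of 0.29, 0.22, 0.20 and 0.21 at 4 weeks and -0.47, -0.26 and -0.38 at 8 weeks. It moved the least among the 7 genes called at both times, to means of 0.23 ± 0.04 (1.17-fold higher, adjusted p = 0.00885) and -0.37 ± 0.11 (1.30-fold lower, adjusted p = 0.0019).

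*Cngb1*, which encodes the beta subunit that carries the channel to the cilia and also serves rod photoreceptors, was read by 3 probes. The brightest, for the transcript NM_001195413, gave 0.53, 0.41, 0.45 and 0.32 at 4 weeks and -0.64, -0.61 and -0.60 at 8 weeks. Its 8-week arrays were the tightest of any of the genes, with means of 0.43 ± 0.09 (adjusted p = 0.000501) and -0.62 ± 0.02 (1.53-fold lower, adjusted p = 0.000138). A dimmer probe for the same transcript gave 0.26, 0.59, 0.78 and 0.61 at 4 weeks (adjusted p = 0.0137) and -0.90, -0.20 and -0.14 at 8 weeks (adjusted p = 0.0723). The directions matched the brightest probe on every array, while the 8-week mean missed the threshold. The remaining probe, for NM_145601, was not well above background in either channel on any 4-week array and entered the test through the 8-week arrays. On replicate 1 of 8 weeks its control signal was 487 before background correction, against 73 and 71.5 on the other 8-week arrays, and the ratio was -2.04 there against 0.19 and 0.21. Replicate 1 of 8 weeks also held the highest control level of the second probe, 8.72 (log2) against 7.76 and 7.54. *Cngb1* is in the study's own list of changed genes, chosen on these samples, so its values here are no independent evidence. That list required a change of 2-fold or more, which the mean of none of the 3 probes reached here at either time. The brightest was 1.34-fold higher at 4 weeks and 1.53-fold lower at 8 weeks. With the processed signals the dimmer probe for the same transcript had ratios of 0.88 or above on every 4-week array. The probe and exposure time behind the study's call are not given in the sources used here.

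At 8 weeks and between the exposure times the last steps of the cascade changed least, while at 4 weeks *Adcy3* had the mean closest to 0. *Ano2*, the calcium-gated chloride channel, had ratios of 0.46, 0.18, 0.04 and 0.16 at 4 weeks and -0.25, -0.07 and -0.14 at 8 weeks. All signs followed the other genes, but neither mean passed the test, with 0.21 ± 0.18 at 4 weeks (95% interval 0.04 to 0.38, adjusted p = 0.0521) and -0.15 ± 0.09 at 8 weeks (95% interval -0.34 to 0.04, adjusted p = 0.194). Without replicate 3 of 4 weeks the 4-week mean of *Ano2* was 0.27 and passed (adjusted p = 0.0398), and it also passed with the processed signals (0.0417), with scaling between arrays (0.0481) and with the filter on both channels (0.0411). With each array centred on its median in place of loess, *Ano2* was called lower at 8 weeks (-0.47, adjusted p = 0.00274). *Slc24a4*, the calcium exchanger, had ratios of 0.13, 0.16, 0.17 and 0.06 at 4 weeks and 0.22, 0.03 and 0.36 at 8 weeks. It was the only one of the 10 genes above 0 on all 7 arrays, with means of 0.13 ± 0.05 (adjusted p = 0.126) and 0.20 ± 0.16 (95% interval 0.04 to 0.36, adjusted p = 0.0507). With the same centring the 8-week mean of *Slc24a4* was -0.07, so its direction at 8 weeks rests on the normalization, and without replicate 2 of 8 weeks the mean was 0.29 and passed (adjusted p = 0.0347), as it did with the processed signals (0.0484), scaling between arrays (0.0471) and the filter on both channels (0.0408).

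The change between exposure times was tested directly as the 8-week minus the 4-week log2 ratio. It was below 0 and called for 8 of 10 genes, where 16% of all genes were called lower and 14.8% higher (30.8% in all). The difference was -1.46 ± 0.12 (SE) for *Gng13*, -1.32 ± 0.09 for *Omp*, -1.32 ± 0.09 for *Gnal*, -1.17 ± 0.08 for *Stoml3* and -1.04 ± 0.07 for *Cngb1*, with adjusted p between 7.84e-05 and 0.000144 in limma. In this difference these 5 genes also had an unadjusted limma p up to 0.01 and a change of 2-fold or more, which 3.05% of all genes did. The study set those thresholds for DEP against control, where 0 of 10 genes passed here at either time. *Cnga2* (-0.90 ± 0.16, adjusted p = 0.00486) and *Cnga4* (-0.60 ± 0.07, adjusted p = 0.00109) followed with smaller differences. For *Ano2* the difference was -0.36 ± 0.11 (adjusted p = 0.041), and the call was lost without replicate 2 (adjusted p = 0.0745) or 4 (0.0657) of 4 weeks and without replicate 1 (0.113), 2 (0.0815) or 3 (0.0941) of 8 weeks. The difference of *Adcy3* was -0.75 ± 0.30 (95% interval -1.45 to -0.05, adjusted p = 0.0985), and -1.02 without replicate 1 of 4 weeks (adjusted p = 0.00798). For *Slc24a4* it was 0.07 ± 0.09 (95% interval -0.13 to 0.28, adjusted p = 0.562). In all, 8 of 10 genes were higher in DEP on every 4-week array and lower on every 8-week array, where 7.34% of all genes were, and the same 8 had every 8-week ratio below every 4-week ratio, where 21.1% of all genes did.

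Array by array, the median log2 ratio of the 10 genes was 0.36, 0.46, 0.52 and 0.32 on the 4-week arrays and -0.51, -0.63 and -0.55 on the 8-week arrays. On single arrays 9 or 10 of the 10 genes lay above 0 at 4 weeks, and 9 lay below 0 at 8 weeks. No array stood apart from its group in this median. The exception at 4 weeks was *Adcy3* on replicate 1, and the exception on every 8-week array was *Slc24a4*.

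The ratio can turn through either RNA, so the levels of both channels are described for the brightest probe of each gene, as log2 intensities normalized between arrays and with no test. For *Omp* the control level was 16.06, 15.97, 15.69 and 16.02 at 4 weeks and 16.46, 16.59 and 16.71 at 8 weeks, while the DEP level was 16.86, 16.91, 16.67 and 16.87 at 4 weeks and 16.17, 16.17 and 16.13 at 8 weeks. The control level was thus higher on the 8-week than on the 4-week slide and the DEP level lower, without overlap in either channel. For *Gnal* the control level went from 12.56 to 12.76 at 4 weeks to 13.52 to 13.62 at 8 weeks, and the DEP level from 13.07 to 13.49 down to 12.83 to 12.87. For *Gng13* the control level was 13.49 to 13.61 and then 14.20 to 14.28, and the DEP level 13.89 to 14.23 and then 13.07 to 13.48. From 4 to 8 weeks the mean of *Gng13* changed by 0.70 in the control level and by -0.76 in the DEP level. For *Stoml3* these changes were 0.34 and -0.83. Where a gene had several probes, the split between channels depended on the probe. The brighter *Gnal* probe changed by 0.93 (control) and -0.40 (DEP), and the dimmer one by 0.41 and -0.44. The brightest *Cngb1* probe changed by 0.38 and -0.66, the second probe for its transcript by 0.71 and -0.26, and the third probe by 0.92 and 0.28. Over the 10 genes the control level did not overlap between the times for 9 and the DEP level for 8, which held for 44.3% and 46.2% of all genes. The median change was 0.41 in the control level and -0.47 in the DEP level, against 0.02 and 0.02 over all genes. *Slc24a4* differed, with lower levels at 8 weeks in both channels (-0.41 in control and -0.34 in DEP). Levels at 4 and 8 weeks were read on different slides, and neither the part of the slide nor that of the time the control mice were kept was tested.

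**Figure D2:**
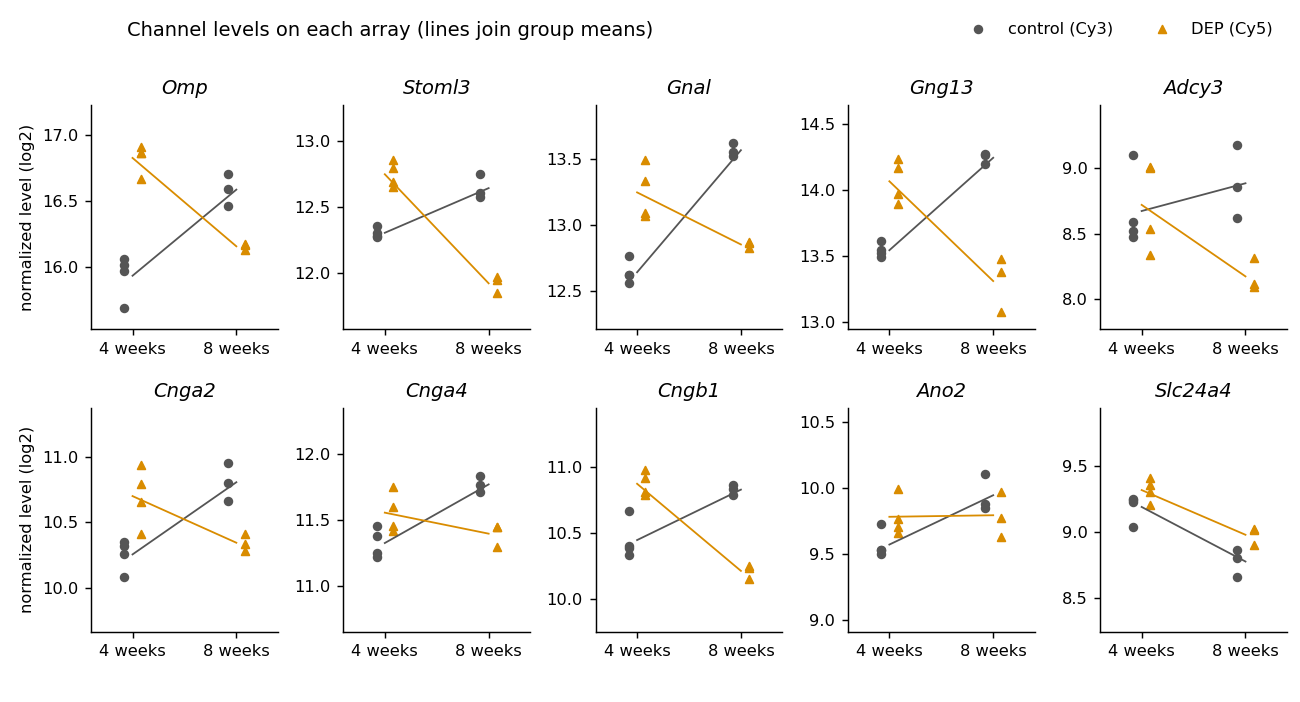
Normalized log2 level of the brightest probe of each gene (vertical axis, the same span of 1.7 in every panel) in the control (Cy3, grey circles) and DEP (Cy5, orange triangles) channel of each array at 4 weeks (n = 4) and 8 weeks (n = 3), with lines between group means. The lines cross for 9 genes, control rising and DEP falling or level, and for *Slc24a4* both fall side by side.

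The other genes of the pathway, from a list of 24 of which 23 were tested, followed in part. At 4 weeks 11 of 23 rose and 1 fell, where 21.6% of all genes rose and 16.6% fell, with a median log2 ratio of 0.16. At 8 weeks 2 rose and 10 fell, where 20.3% of all genes rose and 16.9% fell, with a median of -0.20. With median centring in place of loess the counts were 7 up and 2 down at 4 weeks and 0 up and 13 down at 8 weeks. *Pde4a*, a phosphodiesterase that degrades cyclic AMP in the neuron, rose at 4 weeks (0.86, adjusted p = 0.000118) and fell at 8 weeks (-0.45, adjusted p = 0.00443). *Gfy* (golgi-associated olfactory signalling regulator, 0.81 and -0.33) and *Ric8b*, a helper of Golf (0.52 and -0.35), were called in the same pair of directions. *Pde1c*, the calcium-dependent phosphodiesterase of the cilia, rose at 4 weeks (0.62) and had 0.14 at 8 weeks (adjusted p = 0.206). Among the receptor transporters, *Rtp1* had 0.12 at 4 weeks (adjusted p = 0.283) and fell at 8 weeks (-0.38), while *Rtp2* rose at 4 weeks (0.41) and had 0.01 at 8 weeks (adjusted p = 0.947). The widely expressed beta subunit *Gnb1* had -0.13 at 4 weeks (adjusted p = 0.417) and fell at 8 weeks (-0.76, adjusted p = 0.00501). The calcium pump genes went other ways, *Atp2b1* lower at both times (-0.29 and -0.35) and *Atp2b2* higher at both (0.27 and 0.34).

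Other markers of mature olfactory neurons moved in part as the cascade did. Of 12 other mature olfactory neuron markers 6 rose and 0 fell at 4 weeks, where 21.6% of all genes rose and 16.6% fell. At 8 weeks 1 rose and 5 fell, where 20.3% of all genes rose and 16.9% fell. The medians of these markers were 0.26 and -0.21. *S100a5*, an activity-linked calcium-binding protein, changed from 0.26 to -0.32 (both called), and *Kirrel2*, an axon-sorting adhesion protein, from 0.02 (adjusted p = 0.834) to -0.68. The 1 marker called higher at 8 weeks was *Kirrel3*, with 0.06 (adjusted p = 0.286) and 0.46 (adjusted p = 0.000433 in limma). The EBF factor genes themselves had ratios of 0.41 at 4 weeks and -0.20 at 8 weeks for *Ebf1* (adjusted p = 0.00163 and 0.0598) and 0.26 and -0.81 for *Ebf2* (adjusted p = 0.0577 and 0.000922). Of 7 progenitor and immature neuron genes tested, 2 rose and 0 fell at 4 weeks, where 21.6% of all genes rose, and 2 rose and 1 fell at 8 weeks, where 20.3% rose and 16.9% fell (1 up and 3 down with median centring). Their medians of 0.09 and 0.07 did not turn in sign as that of the cascade did. *Gap43*, a growth cone protein of immature neurons, had 0.09 and 0.11, and passed the test at neither time.

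Sustentacular cells, the supporting cells of the olfactory epithelium, gave a pattern near that of the cascade. Of 7 of their genes tested, 6 rose and 0 fell at 4 weeks, where 21.6% of all genes rose and 16.6% fell. At 8 weeks 1 rose and 6 fell, where 20.3% of all genes rose and 16.9% fell. The medians of the sustentacular genes were 0.34 and -0.43. The counts depended on the test and setting, with 4 up at 4 weeks with median centring, 3 up at 4 weeks and 3 down at 8 weeks in the methods' t-test without pairing, 2 up at 4 weeks and 0 down at 8 weeks in the methods' t-test paired within arrays, and 2 down at 8 weeks with the replicate block. *Cbr2*, a carbonyl reductase, had 0.64 and -0.69, and *Cyp2g1*, an olfactory cytochrome P450, 0.16 and -0.50, all called. *Ermn*, an actin-binding protein gene also known from myelinating cells, was higher at both times (0.32 and 1.70). Their summed linear level over 6 probes without gaps ranged from 82864 to 108441 (DEP) and 59099 to 71284 (control) at 4 weeks, and from 87408 to 98733 and 127244 to 148680 at 8 weeks. That of the 10 cascade genes ranged from 150949 to 165785 (DEP) and 83805 to 98932 (control), and then from 98679 to 103029 and 137195 to 153908. *Omp* alone made up 63.1% to 75.4% of the cascade sum, and the other 9 genes summed to 38985 to 46484 (DEP) and 29782 to 30950 (control) at 4 weeks and to 26925 to 29209 and 46660 to 47506 at 8 weeks. These sums, with or without *Omp*, were thus higher in DEP at 4 weeks and higher in control at 8 weeks with no overlap between channels. The control sum was 72668 to 78947 at 4 weeks and 91405 to 99696 at 8 weeks for the other pathway genes. It did not rise for the other mature neuron markers (61142 to 67106, then 60713 to 66338) or the progenitor and immature neuron genes (5497 to 5740, then 5190 to 5551). The part of the share of olfactory epithelium in the samples was not tested. Olfactory ensheathing glia showed no common direction, with 2 of 8 genes higher and 1 lower at 4 weeks, against the same shares of all genes. At 8 weeks 2 were higher and 2 lower (1 and 5 with median centring), and the medians were -0.03 and -0.11. The summed level of the glia genes overlapped between channels at 4 weeks (5895 to 8545 in DEP, 5621 to 6784 in control). At 8 weeks it was higher in DEP (10327 to 13523, against 7577 to 9056 in control).

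**Figure D3:**
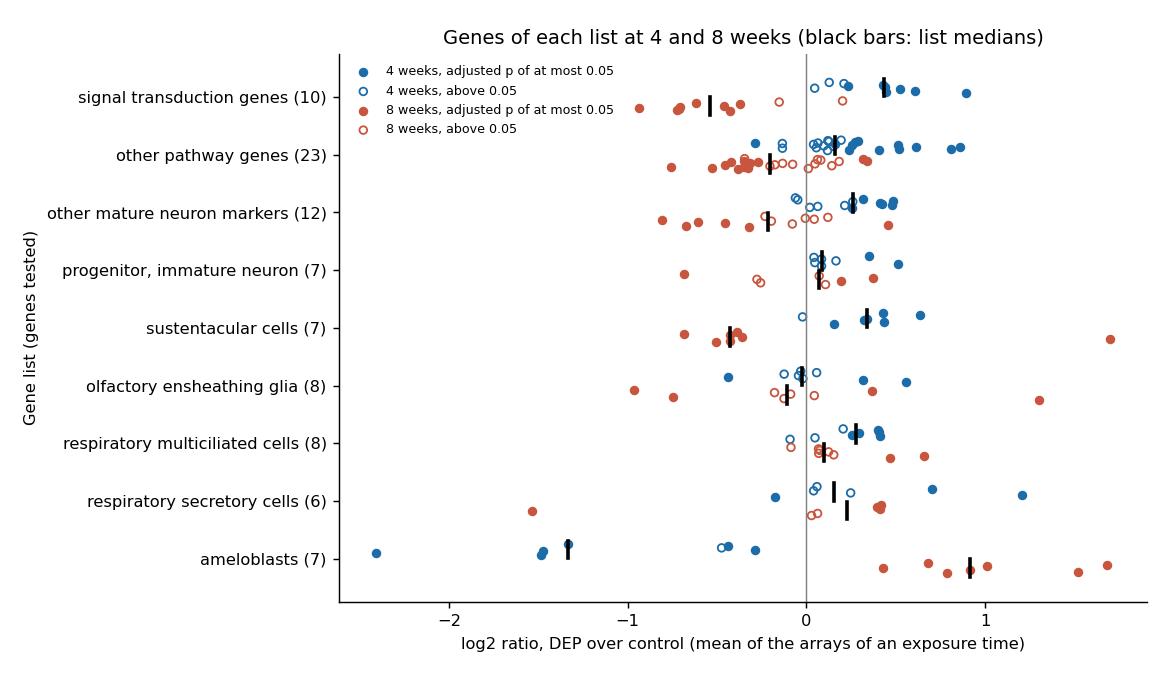
Mean log2 ratio of DEP over control (horizontal axis) of each tested gene of 9 lists (vertical axis, number of genes in brackets) at 4 weeks (blue, n = 4 arrays) and 8 weeks (red, n = 3 arrays). Filled points have an adjusted p of at most 0.05 and black bars are list medians, which lie above 0 at 4 weeks and below 0 at 8 weeks for the cascade, the other pathway genes, the other mature neuron markers and the sustentacular genes, and the other way round for the ameloblast genes.

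Genes of the tooth moved against the cascade. All 7 ameloblast genes, which build enamel, were tested. At 4 weeks 0 rose and 6 fell, where 21.6% of all genes rose and 16.6% fell. At 8 weeks 7 rose and 0 fell, where 20.3% of all genes rose and 16.9% fell. The medians of the ameloblast genes were -1.33 and 0.92. *Ambn* (ameloblastin) had -2.41 and 1.52, and *Amelx* (amelogenin) had -1.48 and 0.79. Their summed level was 5123 to 5797 in DEP and 15572 to 16929 in control at 4 weeks, and 72952 to 96129 in DEP and 42768 to 43870 in control at 8 weeks. All 7 arrays thus differed in tooth transcripts in the direction opposite to the cascade, and the part of the dissection of the tissue in the result was not tested. *Slc24a4*, the cascade gene that ameloblasts also use, followed neither group, with a ratio of 0.13 and 0.20.

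Respiratory cells did not follow the cascade at 8 weeks. Of 8 multiciliated genes 5 rose and 0 fell at 4 weeks, where 21.6% of all genes rose and 16.6% fell. At 8 weeks 2 rose and 0 fell (1 and 2 with median centring), where 20.3% of all genes rose and 16.9% fell. The medians of the multiciliated genes were 0.28 and 0.10, and their summed levels ranged from 4405 to 4613 (DEP) and 3627 to 3911 (control) and then from 5717 to 6068 and 5043 to 5113. Of 6 secretory genes 2 rose and 1 fell at 4 weeks, and 3 rose and 1 fell at 8 weeks (0 and 1 with the processed signals), against the same shares of all genes. *Muc5ac*, a gel-forming mucin, had 1.20 and 0.06, and *Muc5b*, another, had 0.25 and -1.54. Tuft and solitary chemosensory cells, which share *Gng13* with olfactory neurons, had 2 of 8 genes tested, and their defining *Trpm5* and *Gnat3* were not well above background in enough arrays to be tested. Of the 2, *Tas1r3* rose at both times (0.32 and 0.53), a 4-week call that was lost with median centring. Of the vomeronasal markers, *Gnao1* rose and fell as the cascade did (0.43 and -0.43), *Gnai2* had 0.12 (adjusted p = 0.239) and 0.28 (called higher), *Lmx1a* was not tested and *Trpc2* had no named probe.

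To see which other genes ran in parallel, each gene's 14 channel levels (7 arrays with 2 channels) were set against the mean of the 10 cascade genes after centring each probe. Of 20432 genes ranked, 28 reached a Pearson r of 0.9, given as a description with no p, since levels of 1 array share its hybridization and the levels of 1 channel share its dye. The 10 most alike were *Cnppd1* (r = 0.97), *Ormdl3* (0.96), *Snph* (0.96), *Pex5l* (0.96), *Dtx1* (0.95), *Pth2* (0.94), *Ebf3* (0.94), *Elavl3* (0.93), *Chga* (0.93) and *Slc45a1* (0.93). *Snph* encodes syntaphilin, which anchors axonal mitochondria, *Elavl3* a neuronal RNA-binding protein, *Chga* chromogranin A of secretory granules, and *Ebf3* a further EBF factor. All 10 were higher at 4 weeks and lower at 8 weeks, which the choice by these same levels fixes, with log2 ratios from 0.29 (*Cnppd1*) to 0.73 (*Pex5l*) at 4 weeks and from -0.81 (*Dtx1*) to -0.36 (*Cnppd1*) at 8 weeks. The cascade genes had r of 0.93 (*Gng13*, *Stoml3*), 0.91 (*Cngb1*), 0.89 (*Cnga2*), 0.88 (*Omp*), 0.87 (*Gnal*), 0.74 (*Cnga4*), 0.65 (*Adcy3*), 0.41 (*Ano2*) and 0.0036 (*Slc24a4*) with this mean, of which each is a part. Olfactory receptor genes were 380 of the genes ranked and 2 of the 100 most alike.

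**Figure D4:**
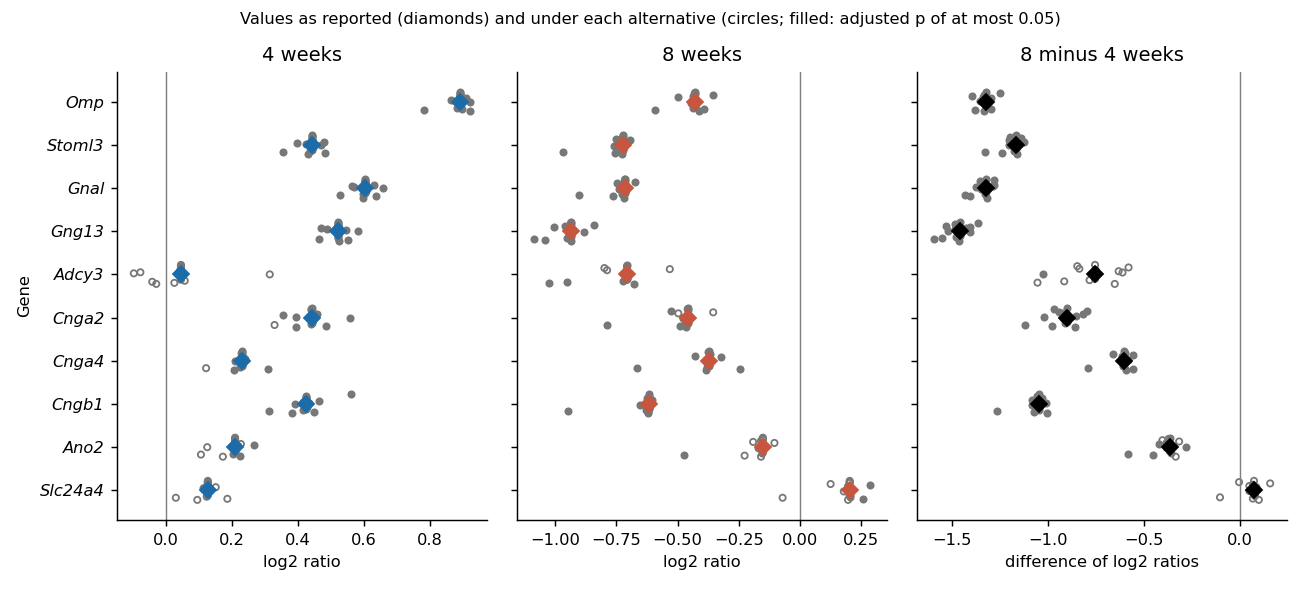
Log2 ratio of each gene at 4 weeks and 8 weeks, and their difference (horizontal axes), as reported (diamonds) and under each alternative processing or left-out array (circles, filled at an adjusted p of at most 0.05). Only *Adcy3* at 4 weeks and *Slc24a4* at 8 weeks and in the difference have circles on both sides of 0.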

How the data were processed

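Total RNA of nasal tissue was measured on 7 Agilent mouse 4x44K V2 arrays, each with DEP (Cy5) and control (Cy3) RNA. Per the file headers, the authors deposited the output of Feature Extraction 10.10.1.1, in which the median signal of each spot and of its local background is an intensity, not yet subtracted or normalized. The deposited processed signals are intensities after the software's own background subtraction and dye normalization, and they served as an alternative only. The GeneSpring normalization named in the methods is not part of the files.

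Background correction used normexp (offset 50) of limma 3.58.1 in R 4.3.3, fitted without the spots marked by the software as background outliers (0.649% to 3.66%), and log2 ratios were normalized by loess within arrays, which sets the bulk of genes near 0. The offset shrinks ratios of dim probes. Non-uniform spots (5 to 179 per array) were left out. A probe was tested if 3 or more of the 7 arrays showed it well above background in either channel (25236 probes), and a gene was read from its brightest tested probe. Of all probes, 28330 were named through RefSeq, and no coordinates of probes were used. All 10 genes passed this filter, and 12 of their 13 probes exceeded background well in both channels of every array. A linear model gave a mean per exposure time and their difference, tested by limma's moderated statistics with Benjamini-Hochberg adjustment over all probes. Channel levels were scaled between arrays (Aquantile). The steps were tested on simulated arrays.

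The 10 genes, the marker lists and the tests were chosen with earlier results of these data known. Named are all 10 genes, listed genes that come early in their list or changed most, and the 10 genes most alike in level. *Kirrel2*, *Pde1c*, *Ric8b*, *Gnb1*, *Atp2b1*, *Atp2b2*, *Ebf1*, *Ebf2*, *Tas1r3*, *Ermn*, *Muc5b* and *Gap43* were in part named after their values were seen. Alternatives were the background fit, the processed signals, median centring, scaling between arrays, the filter, non-uniform spots, the samples fitted, the replicate block, each array left out, the methods' t-test and the choice of probe. The number of arrays limits the precision. A list of rod photoreceptor genes is not reported here.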

Additional observations from a re-analysis of the deposited data

Results flagged for a closer look

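The DEP over control ratio differed between the exposure times, tested as the 8-week minus the 4-week log2 ratio in limma, for 8 genes. The differences were -1.32 for *Omp*, -1.17 for *Stoml3*, -1.32 for *Gnal*, -1.46 for *Gng13*, -0.90 for *Cnga2*, -0.60 for *Cnga4*, -1.04 for *Cngb1* and -0.36 for *Ano2*, against a median of 0.02 over all genes. In each of the 8 genes every 8-week array lay below every 4-week array, which held for 21.1% of all genes. No array stood apart from the other arrays of its exposure time by Dixon's criterion in any of the 13 probes at 4 weeks, and groups of 3 arrays were not tested.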

How the results depend on the processing

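Of 540 recomputed log2 ratios and differences of the 10 genes, 492 kept their direction and side of the threshold, 31 fell below it, 10 rose past it and 7 turned in sign. The ratio of *Adcy3* at 4 weeks (0.05) was -0.0282 with the background fitted on all spots, -0.0403 with median centring, and between -0.0961 and 0.3159 when single arrays were left out. *Slc24a4* turned with median centring at 8 weeks (-0.0712) and in the difference (-0.1023), and its difference ran from -0.0031 to 0.159 with single arrays left out. Of 270 values of *Omp*, *Stoml3*, *Gnal*, *Gng13* and *Cngb1*, 4 fell below the threshold, all at 8 weeks in the methods' t-test paired within arrays. These 5 genes were picked because they lost calls in no other alternative, so this count follows from the choice. Of 19 alternatives at each time, *Cnga2* lost its call in 3 at 4 weeks and 4 at 8 weeks, and *Cnga4* in 3 and 1. With 3 arrays, the paired t-test called 1 of 10 genes at 8 weeks after Benjamini-Hochberg adjustment, against 8 in limma, and 1.91% of all genes against 37.2%.

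The 10 genes gave 5 to 8 calls at 4 weeks, 6 to 9 at 8 weeks and 7 to 9 in the difference under the other alternatives. Leaving out single arrays gave 7 to 8, 6 to 8 and 7 to 9. With the replicate block, 6, 6 and 7 were called. Deviations of same-numbered arrays were barely correlated (r = -0.0065, -0.0076 and 0.02). These values show no large shared deviation, but cannot tell whether the numbers pair the arrays. Median centring moved the median of all genes at 8 weeks to -0.10 and the share of higher among all calls from 56.5% to 42.5% at 4 weeks, from 54.6% to 27% at 8 weeks and from 48.1% to 28.9% in the difference. With the processed signals these shares were 67.5%, 51% and 35.6%. Calls over all genes fell from 38.1% to 24.3% at 4 weeks with the background fitted on all spots, to 22.6% without the filter and to 21.2% in the methods' unpaired t-test. At 8 weeks they fell from 37.2% to 21.1% without the filter, to 21.5% with the replicate block, to 21.5% without replicate 2 of 8 weeks and to 23.3% in the unpaired t-test. In the difference they fell from 30.8% to 16.2%, 15.4% and 18.7% under the first 3 of these. Of 594 counts over the marker lists, 61 moved by over 1.5 times, 25 of them in lists of 2 tested genes. In the methods' t-test paired within arrays, 0 of 7 ameloblast genes and 0 of 23 other pathway genes were called at 8 weeks. Of the 12 other mature neuron markers, that test called 3 higher at 4 weeks, and 1 higher and 0 lower at 8 weeks. The cause of these shifts was not tested.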
